A study of Mus musculus with 12 samples.

Results

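Leukocyte integrins are the heterodimeric receptors by which blood cells hold on to endothelium, matrix and each other. The 10 genes described here encode 7 α subunits (Itgal, Itgam, Itgax, Itga4, Itga5, Itga6 and Itgav) and 3 β subunits (Itgb2, Itgb7 and Itgb1). They were listed by name and matched by symbol to the Ensembl identifiers of the count table, which holds 55421 genes, among them 28 integrin subunit genes by symbol. All 10 passed the filter on low counts and were tested.

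RNA was sequenced from cells sorted as bone marrow endothelial cells of 12 mice at 20 weeks of age, with 1 library per mouse and 3 mice per group. Controls were naive C57BL/6J mice, and the hypertension and myocardial infarction (MI) groups were of the same strain. Hypertension was induced by chronic angiotensin II. Mice with atherosclerosis carried the Apoe(tm1Unc) knockout allele, which is absent from the other groups, and the study kept them on an atherogenic diet, so genotype, diet and disease cannot be told apart. The labels place the MI samples 2 days after infarction, while the study's text gives a later day. The sort kept CD31-high SCA-1+ cells that were negative for CD45, CD41 and TER-119, and it followed a depletion step whose antibodies include CD11b and CD11c, the products of Itgam and Itgax.

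Libraries held 17007088 to 25136936 counts, and 3 counts, taken as the smallest measured amount, correspond to 0.116 to 0.176 CPM. CPM values are counts scaled to library size with TMM factors and compare one gene between libraries. RPKM values are further divided by exon length and were used wherever genes were compared with each other. The endothelial label was checked first. Cdh5, the endothelial cadherin, lay between 0.475 and 0.997 RPKM and Pecam1, which encodes CD31, between 2.76 and 5.10 RPKM. Ptprc, which encodes CD45, lay between 25.3 and 44.5 RPKM, above Pecam1 in all 12 libraries. Of 10 marker lists, the 13 neutrophil genes summed to between 34128 and 98296 CPM and the 24 endothelial genes to between 198 and 346 CPM. The levels of the integrin genes are therefore those of a bulk sample in which leukocyte transcripts were abundant. In such a sample, fewer cells of a type and less RNA per cell cannot be told apart. Apoe itself was at 3.41 to 6.91 RPKM in the atherosclerosis libraries and at 211 to 703 RPKM in the others. The edgeR p-values below set a difference between groups against the spread between these mice, estimated over all groups and moderated across genes. The permutation p-values of correlations shuffle the 12 libraries without regard to group, so they mix group differences with variation between mice.

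Each integrin pairs an α with a β chain, and the pair decides the ligand. The β2 integrins are restricted to leukocytes, bind intercellular adhesion molecules and complement fragments, and include LFA-1 (αL with β2), Mac-1 (αM with β2) and the CD11c integrin (αX with β2). The α4 chain pairs with β1 to bind VCAM-1 and fibronectin or with β7 to bind MAdCAM-1, and in bone marrow the α4β1 integrin retains hematopoietic progenitors. The α5, α6 and αV chains bind fibronectin, laminin and RGD-bearing matrix proteins, and αVβ3 is the integrin that the study imaged in the marrow with a peptide probe.

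Per exon length, Itgb2 was the most abundant of these transcripts. Itgb2, the common β2 chain, had a median of 231 RPKM over 12 libraries and ranked 189 of 15992 genes by this measure. It was followed by Itgb7 with a median of 62.7 RPKM, Itgam with 48.5, Itgb1 with 37.2, Itgal with 14.6, Itga4 with 7.44, Itga6 with 5.43, Itga5 with 3.87, Itgav with 1.59 and Itgax with 1.18 RPKM. Between neighbours in this order, the ranges over the 12 libraries were separate for Itgb2 and Itgb7, for Itgb1 and Itgal, and for Itga5 and Itgav. The other neighbouring ranges overlapped. Within a library, Itgal was nevertheless above Itga4 in 12 of 12 and Itga4 above Itga6 in 11 of 12, while the remaining overlapping neighbours kept their order in 9 or 10 of 12. Of the summed RPKM of the 3 β chains, Itgb2 held 69.2% ± 2.9 (SD, n = 12), Itgb7 held 19.2% ± 2.5 and Itgb1 held 11.6% ± 1.5. Of the summed RPKM of the 7 α chains, Itgam held 57.7% ± 6.8 (SD, n = 12).

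**Figure D1:**
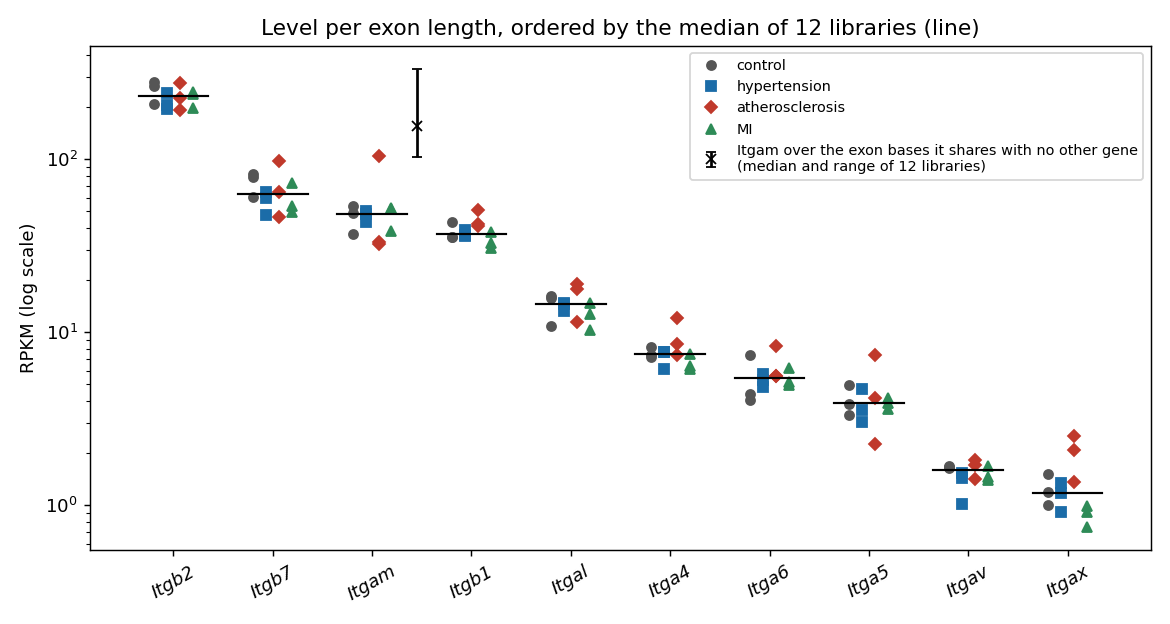
Level of each integrin gene in RPKM (log axis), with a point for each library, the marker and colour giving the group, and a line at the median of 12 libraries. Itgb2 stands above the other genes in every library when exon length is used, and the cross beside Itgam shows its median of 155 RPKM if only its unshared exon bases in GENCODE M21 were counted.

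The order depends on the length that is divided by. Over coding length Itga4 had a median of 33.6 RPKM and stood above Itgal with 25.3 RPKM, because 13978 exon bases are annotated for Itga4 and 3096 of them are coding. For Itgam the counting itself may be limited. In GENCODE M21, a different release from the one the study counted with, the gene Gm49368 lies on the same strand and shares 3450 of the 5024 exon bases of Itgam, and the counting option of STAR leaves out reads that touch more than 1 gene. Gm49368 is in the count table, with 1 to 14 counts per library, but whether its exons were the same in the release used for counting was not tested. If they were, over the 1574 exon bases of Itgam that are shared with no gene of its strand, its median would be 155 RPKM, which would place it second, above Itgb7 in 12 of 12 libraries. This length was chosen after the overlap had been seen. It rescales Itgam by the same factor in every library and leaves the comparisons between groups as they are.

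The members lie on 5 chromosomes in GRCm38. Itgal (ENSMUSG00000030830, chr7:127296260-127335138), Itgam (ENSMUSG00000030786, chr7:128062640-128118491) and Itgax (ENSMUSG00000030789, chr7:128129547-128150657) follow each other on the + strand of chromosome 7. Itgb2 (ENSMUSG00000000290) is at chr10:77530252-77565708 and Itgb1 (ENSMUSG00000025809) at chr8:128685654-128733200. Itga4 (ENSMUSG00000027009, chr2:79255426-79333123), Itga6 (ENSMUSG00000027111, chr2:71745616-71858416) and Itgav (ENSMUSG00000027087, chr2:83724397-83806916) share chromosome 2, and Itgb7 (ENSMUSG00000001281, chr15:102215995-102231944) and Itga5 (ENSMUSG00000000555, chr15:103344286-103366763) chromosome 15. Itga4 and Itgav also share 1124 and 634 exon bases with genes of the opposite strand, whose reads can be told apart only if the counting used strand, which the study does not state.

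In none of the comparisons did a member pass an adjusted p of 0.05. Against controls, 0 of 10 members were called in hypertension, 0 of 10 in atherosclerosis and 0 of 10 in MI by the quasi-likelihood test of edgeR, with p-values adjusted after Benjamini and Hochberg over 15999 genes. The same test called 0% of all genes in hypertension, 0.144% in atherosclerosis and 0% in MI. At an unadjusted p under 0.05 these shares were 3.71%, 5.97% and 2.80% of all genes, and 0, 1 and 0 of the 10 members. The likelihood-ratio test of edgeR and DESeq2 also called 0 members against controls, and the joint test of the 4 groups called 0 of 10 members, beside 0.144% of all genes. The estimated direction differed between the comparisons. In atherosclerosis 7 members were higher and 3 lower, with a median log2 fold change of 0.21 against 0.01 over all genes. In hypertension 1 was higher and 9 lower, with a median of −0.09 against −0.01, and in MI 2 were higher and 8 lower, with a median of −0.16 against 0.00. These 3 comparisons share the same control libraries. By the unadjusted p the member nearest to a call was Itgax in atherosclerosis, and in MI as well.

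**Figure D2:**
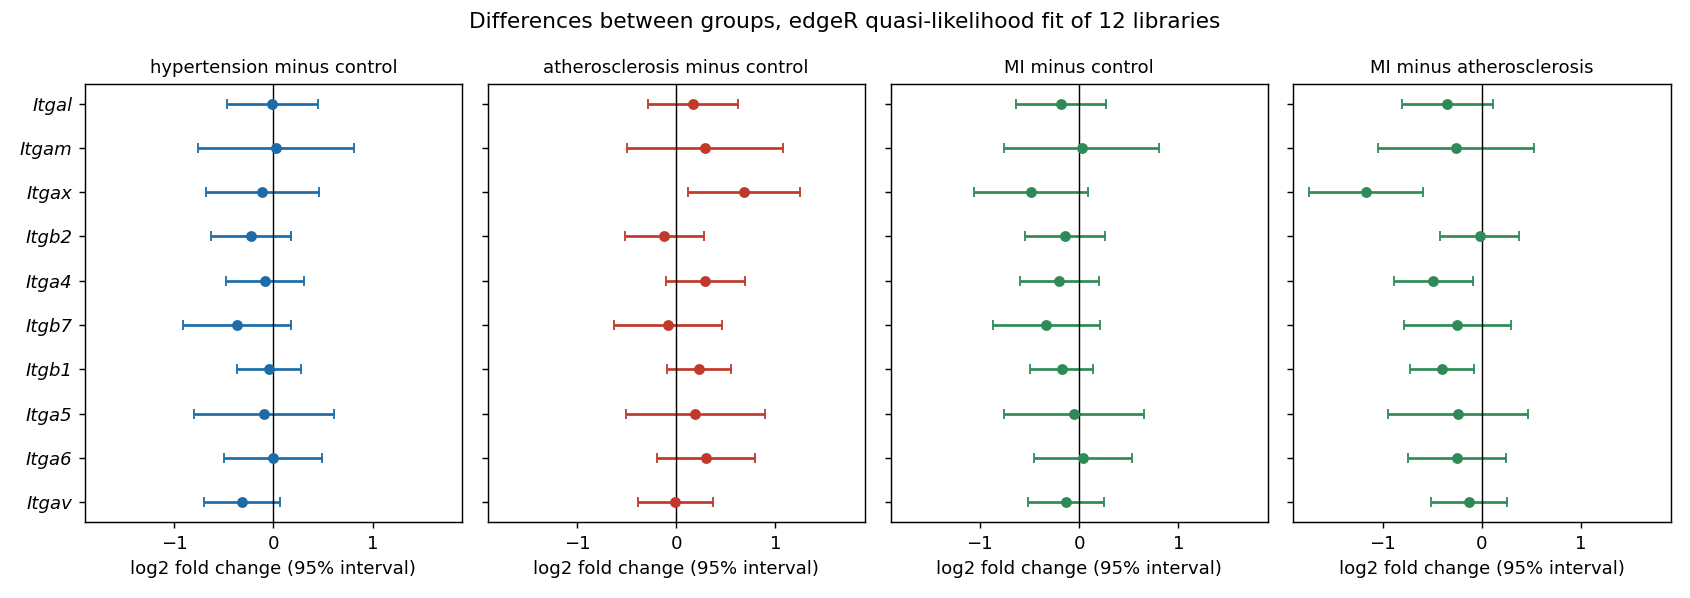
Log2 fold change of each member with its 95% interval in 4 comparisons, from the fit to all 12 libraries. Intervals of most members span 0, and Itgax stands at 0.69 in atherosclerosis against controls and at −1.17 in MI against atherosclerosis.

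Between disease groups the members leaned one way. In MI against atherosclerosis all 10 were lower, with a median of −0.26 against −0.02 over all genes, and in atherosclerosis against hypertension all 10 were higher, with a median of 0.29 against 0.03. These comparisons share the atherosclerosis libraries, and the directions rest in part on single libraries. Without atherosclerosis replicate 2 Itgam turned in both, to 0.52 and −0.52. Without atherosclerosis replicate 4, Itga5 turned to 0.28 and −0.23, Itgb7 to 0.08 and −0.045, and Itgb2 to 0.13 and −0.048, in the first and the second comparison. In both, 0 of 10 members were called, beside 0.269% and 0.0625% of all genes. At an unadjusted p under 0.05, 3 of 10 members were lower in MI than in atherosclerosis (Itgax, Itgb1 and Itga4), beside 7.36% of all genes in that direction. In MI against hypertension 6 were higher and 4 lower, with a median of 0.02, and 0 of 10 members were called, beside 0% of all genes.

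Among the β2 integrins, Itgb2 varied little. Its level was 635, 851 and 814 CPM in controls 2, 3 and 4, 627, 740 and 599 CPM in hypertension, 685, 587 and 844 CPM in atherosclerosis and 727, 752 and 604 CPM in MI. All groups overlapped. Its log2 fold changes were −0.23 ± 0.19 (SE) in hypertension, −0.12 ± 0.19 in atherosclerosis and −0.14 ± 0.19 in MI, and the 95% intervals reached from −0.63 to 0.28 over the 3 comparisons. Itgal, the αL chain of LFA-1, read 71.5, 106 and 103 CPM in controls, 87.3, 95.2 and 96.7 CPM in hypertension, 116, 75.6 and 124 CPM in atherosclerosis and 67.2, 96.9 and 83.4 CPM in MI. Here too the groups overlapped, and its log2 fold changes against controls lay between −0.18 and 0.17, each within its SE of 0.21.

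Itgam, the αM chain of Mac-1 on neutrophils and monocytes, was the member with the widest spread in a single group. Its level was 185, 269 and 244 CPM in controls, 218, 251 and 243 CPM in hypertension and 193, 258 and 261 CPM in MI. In atherosclerosis it was 524, 168 and 162 CPM. Replicate 2 of atherosclerosis was thus the highest of all 12 libraries, while replicates 3 and 4 were the lowest of all. The log2 fold change in atherosclerosis was 0.29 ± 0.36 (SE, unadjusted p = 0.437, adjusted p = 0.941 by edgeR's quasi-likelihood test), and without replicate 2 it turned to −0.49. In the comparisons with MI and with hypertension, leaving out the same library turned it from −0.26 to 0.52 and from 0.26 to −0.52. That library also correlated least with the others over all genes (median r = 0.960, with 0.970 to 0.984 in the other 11), and it held the lowest neutrophil sum of the 12 (34128 CPM) and the highest B cell sum (1223 CPM). The part of these differences in the level of Itgam was not tested.

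Itgax encodes CD11c, the αX chain carried by dendritic cells and some macrophages, and was the least abundant member, with 68 to 270 counts per library. Its level was 4.82, 7.26 and 5.70 CPM in controls, 6.45, 4.38 and 5.66 CPM in hypertension, 12, 6.58 and 9.98 CPM in atherosclerosis and 4.36, 3.60 and 4.75 CPM in MI. The MI libraries were all below the controls and the atherosclerosis libraries all above the MI libraries, while atherosclerosis and controls overlapped. The log2 fold change was 0.69 ± 0.26 (SE) in atherosclerosis (unadjusted p = 0.0208, adjusted p = 0.730, edgeR), −0.48 ± 0.27 in MI (unadjusted p = 0.0917, adjusted p = 1.00) and −0.11 ± 0.26 in hypertension (unadjusted p = 0.684, adjusted p = 0.974). A member with groups that do not overlap, as Itgax in MI against controls, was 1 of 10 and lower, beside 4.59% of all genes that were lower in this way, and in atherosclerosis against controls it was 0 of 10, beside 9.51% of all genes in either direction.

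Set directly against each other, MI was lower than atherosclerosis by a log2 fold change of −1.17 for Itgax, with a 95% interval from −1.74 to −0.60. The unadjusted p was 0.000707, which ranked 126 of 15999 genes, and the adjusted p was 0.0894 by edgeR's quasi-likelihood test. The call depends on the test. The adjusted p was 0.0127 with edgeR's likelihood-ratio test, 0.00413 with DESeq2 and 0.00638 without the filter on low counts. It was 0.401 when only these 2 groups were fitted. With each of the 6 libraries left out in turn the log2 fold change stayed between −1.37 and −0.98. Against hypertension, Itgax in atherosclerosis was 0.80 ± 0.26 higher on the log2 scale (unadjusted p = 0.00937, adjusted p = 0.587, edgeR), again with every atherosclerosis library above. In the joint test of the 4 groups its unadjusted p was 0.00417 and its adjusted p 0.309.

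The summed dendritic cell markers ranked the 4 groups as Itgax did. The 13 genes of that list, which does not hold Itgax, were at 10 or more counts in every library and summed to 610 to 726 CPM in controls, 619 to 675 CPM in hypertension, 744 to 850 CPM in atherosclerosis and 450 to 571 CPM in MI. The atherosclerosis sums were all above and the MI sums all below the controls (exact permutation p = 0.1 each, the smallest that 3 against 3 allows, adjusted p = 0.6 over 30 comparisons of lists). Over the 12 libraries Itgax correlated with the sum at r = 0.73 (permutation p = 0.00682, adjusted p = 0.171 over 100 relations) and rho = 0.85 (permutation p = 0.000820, adjusted p = 0.0410). Without the 2 libraries farthest from the median r was 0.69, and within groups, as deviations from the group means, r was 0.00, so the relation did not hold inside the groups. Nor was it particular to Itgax. Itgal correlated with the same sum at r = 0.66 and Itgb1 at r = 0.65 (adjusted permutation p = 0.290 each). Within groups their r was 0.65 and −0.07. Of the defining genes of the dendritic cell list, Irf8, Cd209a and Tcf4 had the highest medians, at 231, 121 and 121 CPM, and weigh most in the sum. Siglech was between 25.9 and 88.2 CPM and Xcr1 between 0.701 and 2.17 CPM. The macrophage list of 14 genes, 12 of them at 10 or more counts in every library, was also above controls in atherosclerosis, with 967 to 1284 CPM against 637 to 794 CPM. Its sums in hypertension (641 to 1049 CPM) and in MI (598 to 940 CPM) overlapped those of controls. In atherosclerosis against controls all 14 macrophage genes were higher, with a median log2 fold change of 0.78, and 3 were called. Of the 13 dendritic cell genes 11 were higher, with a median of 0.36, and 0 were called. Of all genes 0.106% were called higher in that comparison. The part of either cell type in the level of Itgax was not tested.

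Itgam and Itgax lie side by side, and their RPKM medians differed by a wide margin, so the 250 bases before the RefSeq start of each are shown. RefSeq entries in GRCm38.p6 were matched for 7 of the 10 members, Itgal, Itgb2 and Itga6 being the others. Capitals mark GAGGAA on either strand, the core bound by PU.1, a myeloid transcription factor.
Itgam, + strand, chr7:128062390-128062639: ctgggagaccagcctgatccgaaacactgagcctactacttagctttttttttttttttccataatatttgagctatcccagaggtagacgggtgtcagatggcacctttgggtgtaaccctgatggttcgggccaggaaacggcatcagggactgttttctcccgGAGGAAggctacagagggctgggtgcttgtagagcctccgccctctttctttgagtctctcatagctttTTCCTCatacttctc
Itgax, + strand, chr7:128129300-128129549: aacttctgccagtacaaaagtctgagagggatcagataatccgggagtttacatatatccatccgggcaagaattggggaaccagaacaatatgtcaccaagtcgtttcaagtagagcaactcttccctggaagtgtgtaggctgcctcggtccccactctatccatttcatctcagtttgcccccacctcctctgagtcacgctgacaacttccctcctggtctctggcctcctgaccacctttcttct
In the Itgam window the 6 letters begin 84 and 15 bases before the start, and in the Itgax window they do not occur. They were found in 4 of the 7 member windows (Itgam, Itgb1, Itga5 and Itgav) and in 23.3% of 32851 promoters of the same length. The letters TATAAA of the TATA box were in 0 of the 7 windows and in 12.4% of all promoters. The GC box, GGGCGG, was in 4 of the 7 and in 32.7% of all. These are matches of letters in a window and say nothing about binding.

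Both β partners of α4 had higher medians per exon length than Itga4. Itga4 read 103, 115 and 101 CPM in controls, 107, 108 and 85.4 CPM in hypertension, 168, 119 and 104 CPM in atherosclerosis and 104, 88.7 and 85.1 CPM in MI. The highest value was again atherosclerosis 2, and the groups overlapped in each comparison. Its log2 fold change was 0.29 ± 0.18 (SE) in atherosclerosis and −0.20 ± 0.18 in MI, and between MI and atherosclerosis it was −0.49 ± 0.18 (unadjusted p = 0.0189, adjusted p = 0.302, edgeR). Itgb7, its partner for mucosal homing, read 168, 226 and 219 CPM in controls, 166, 179 and 131 CPM in hypertension, 129, 179 and 271 CPM in atherosclerosis and 202, 137 and 148 CPM in MI. Atherosclerosis held both the lowest and the highest library. The log2 fold changes of Itgb7 were −0.37 ± 0.25 in hypertension, −0.08 ± 0.25 in atherosclerosis and −0.33 ± 0.25 in MI, with unadjusted p of 0.169, 0.747 and 0.209 by edgeR.

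Itgb1, the broadly expressed β1 chain, had the smallest SE of the members. Its level was 145, 145 and 177 CPM in controls, 147, 159 and 148 CPM in hypertension, 169, 172 and 207 CPM in atherosclerosis and 156, 125 and 134 CPM in MI. The atherosclerosis libraries were all above those of hypertension and of MI. Non-overlapping groups were found for 2 of 10 members in MI against atherosclerosis and for 2 of 10 in atherosclerosis against hypertension, Itgax and Itgb1 in both, beside 7.44% of all genes lower in MI and 5.81% higher in atherosclerosis in this way. The log2 fold change of Itgb1 was 0.23 ± 0.15 (SE) in atherosclerosis, −0.18 ± 0.15 in MI and −0.04 ± 0.15 in hypertension, and between MI and atherosclerosis −0.40 ± 0.15 (95% interval from −0.72 to −0.08, unadjusted p = 0.0176, adjusted p = 0.297, edgeR).

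Among the α chains that bind matrix, Itga5, the fibronectin receptor chain, read 18.9, 24.4 and 16.3 CPM in controls, 17.5, 23.2 and 15.0 CPM in hypertension, 11.2, 20.6 and 36.4 CPM in atherosclerosis and 17.8, 19.3 and 20.5 CPM in MI. The spread within atherosclerosis, a coefficient of variation of 55.9%, covered the range of all other libraries. Its estimate in atherosclerosis was 0.19 ± 0.33 (SE) on the log2 scale and turned to −0.32 without replicate 4. Itga6, a laminin receptor chain, read 66.8, 39.6 and 36.7 CPM in controls, 47.7, 51.5 and 43.7 CPM in hypertension, 75.0, 50.3 and 50.3 CPM in atherosclerosis and 56.0, 44.9 and 46.4 CPM in MI. Control 2, the library with the highest megakaryocyte sum (1729 CPM, with 358 and 456 CPM in the other controls), was the highest control for Itga6. Over the 12 libraries Itga6 correlated with the megakaryocyte sum at r = 0.77 (permutation p = 0.00340, adjusted p = 0.170 over 100 relations) and rho = 0.78 (permutation p = 0.00471, adjusted p = 0.157). Without the 2 libraries farthest from the median r was 0.65, and within groups, as deviations from the group means, 0.75. The log2 fold change of Itga6 was 0.30 ± 0.23 in atherosclerosis, 0.04 ± 0.23 in MI and 0.00 ± 0.23 in hypertension.

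**Figure D3:**
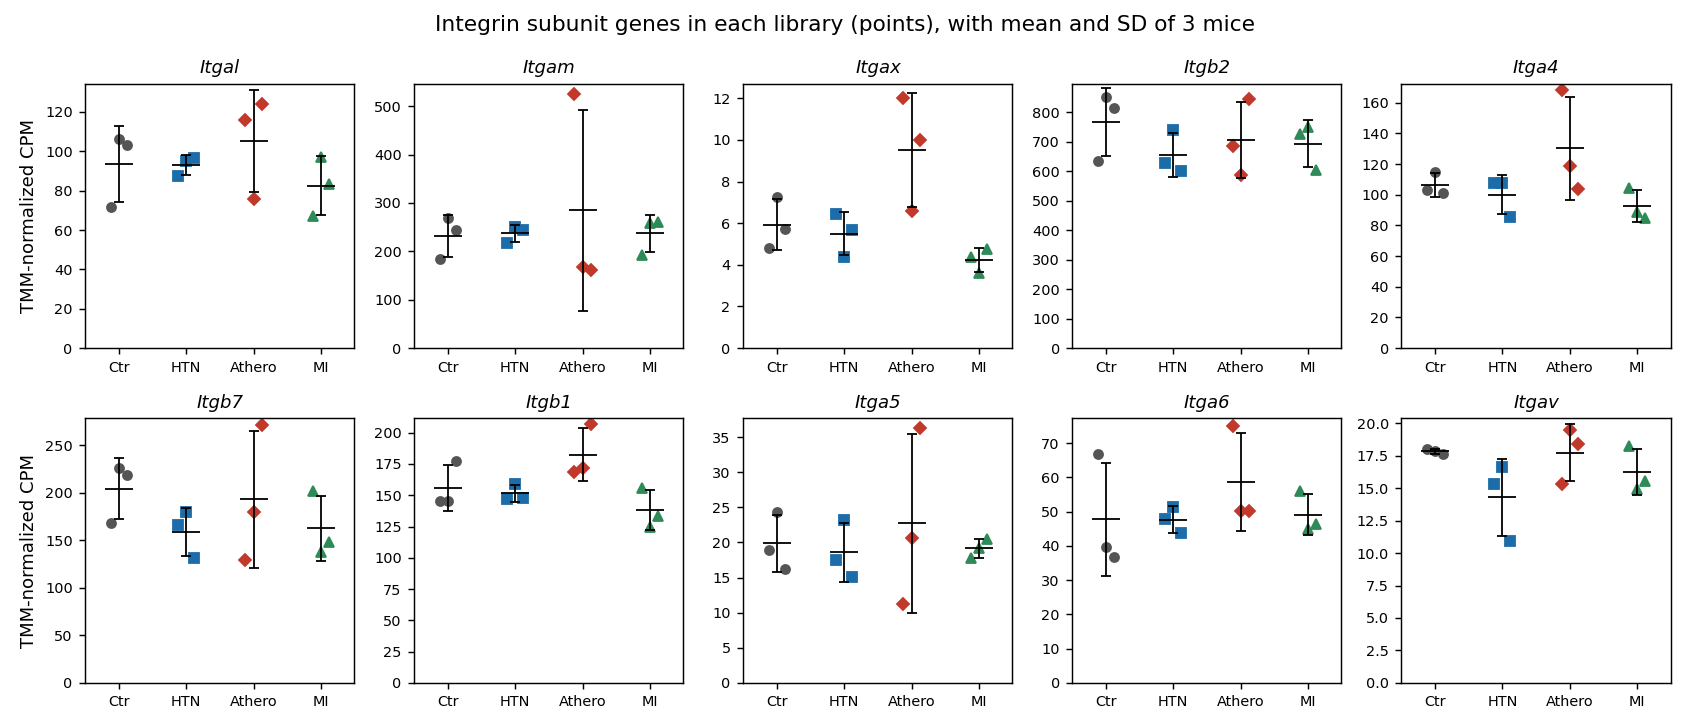
TMM-normalized CPM of the 10 members in each library (points), with the mean and SD of the 3 mice of a group, each panel on its own axis from 0 (Ctr, control; HTN, hypertension; Athero, atherosclerosis). The spread of atherosclerosis is widest for Itgam, where replicate 2 reads 524 CPM, and Itgav is at 17.6 to 18.0 CPM in the 3 controls.

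Itgav was the member with the tightest controls, at 18.0, 17.9 and 17.6 CPM, a coefficient of variation of 0.979%. It read 15.3, 16.6 and 11 CPM in hypertension, 15.3, 19.5 and 18.4 CPM in atherosclerosis and 18.2, 14.9 and 15.6 CPM in MI. All hypertension libraries were below all controls, the single member of which this held in that comparison, beside 7.81% of all genes that were lower in this way. The log2 fold change in hypertension was −0.32 ± 0.18 (SE, unadjusted p = 0.0959, adjusted p = 0.951, edgeR). Among the β chains that form RGD receptors with αV are those of Itgb3 and Itgb5. Itgb3, which also pairs with Itga2b on platelets, read 114, 56.2 and 51.3 CPM in controls, 72.1, 102 and 136 CPM in hypertension, 262, 63.2 and 72.9 CPM in atherosclerosis and 82.1, 48.0 and 111 CPM in MI, with atherosclerosis 2 again the highest. Per length, Itgb3 was between 8.13 and 44.5 RPKM and Itga2b, the gene of the CD41 protein gated against, between 8.08 and 25.5 RPKM, both above Itgav in every library.

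**Figure D4:**
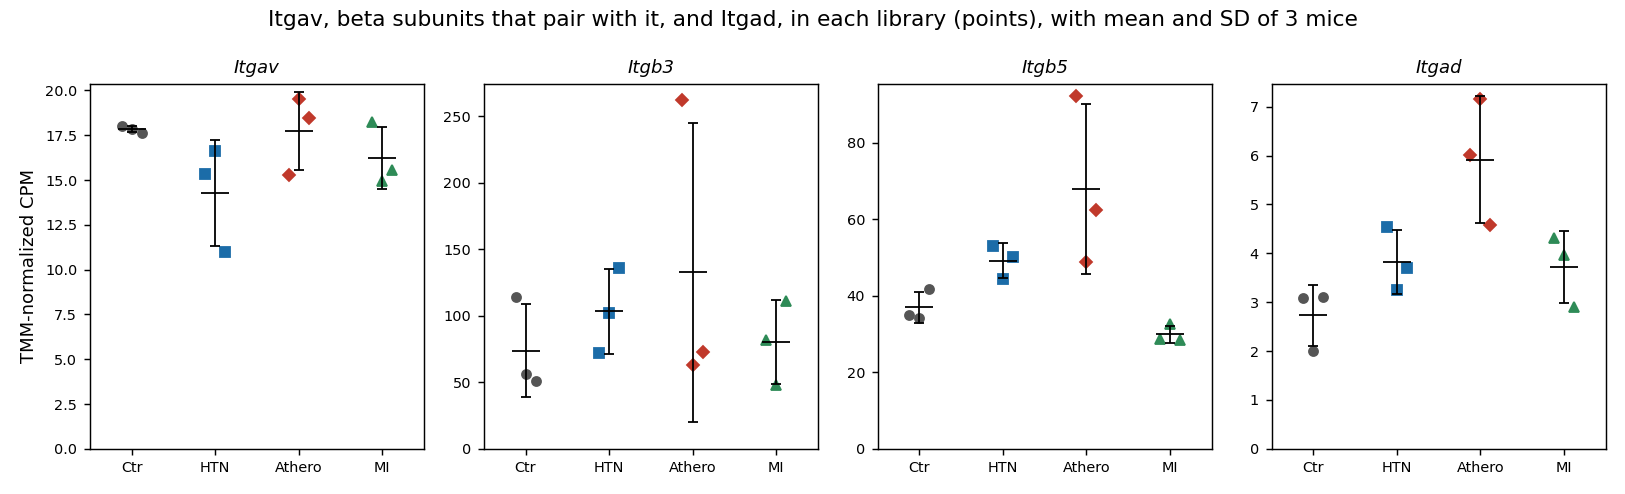
TMM-normalized CPM of Itgav, of its partner chains Itgb3 and Itgb5, and of Itgad in each library (points), with the mean and SD of 3 mice. For Itgb5 and Itgad the 3 atherosclerosis libraries lie above all 3 controls, as they do for 5.06% of all genes.

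Itgb5 read 35.1, 34.1 and 41.7 CPM in controls, 53.2, 44.3 and 50.2 CPM in hypertension, 92.2, 48.8 and 62.5 CPM in atherosclerosis and 28.8, 32.6 and 28.4 CPM in MI. The hypertension and atherosclerosis libraries were all above the controls and the MI libraries all below. Of all genes, 9.02% were higher in this way in hypertension, 5.06% higher in atherosclerosis and 4.59% lower in MI. Its log2 fold change was 0.88 ± 0.20 (SE) in atherosclerosis (adjusted p = 0.204, edgeR). Itgb5 was lower in MI than in atherosclerosis, by −1.18 ± 0.20 (adjusted p = 0.0344, edgeR). This was the 1 call among the 11 tested genes of the list of other integrin subunits, beside 0.269% of all genes. Macrophages express Itgb5. The summed macrophage markers were at 637 to 794 CPM in controls, 641 to 1049 CPM in hypertension, 967 to 1284 CPM in atherosclerosis and 598 to 940 CPM in MI. Unlike Itgb5, the sums of hypertension and of MI overlapped those of controls. The part of macrophages in the level of Itgb5 was not tested. In the list of other integrin subunits 8 were higher and 3 lower in atherosclerosis against controls, with a median of 0.49. Of these, 0 of 11 were called, beside 0.144% of all genes. Itgad, the αD chain that pairs with β2, read 3.08, 2.00 and 3.10 CPM in controls and 6.00, 7.17 and 4.58 CPM in atherosclerosis (log2 fold change 1.11 ± 0.27, adjusted p = 0.290), and Itga9 stood at 1.13 ± 0.31 (adjusted p = 0.397).

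The ratio of an α to a β chain within a library cancels what scales both. Itgam over Itgb2 was 0.177, 0.192 and 0.182 in controls and 0.211, 0.206 and 0.246 in hypertension, where all 3 were higher. It was 0.465, 0.174 and 0.116 in atherosclerosis and 0.161, 0.208 and 0.262 in MI. On the log2 scale the SD of the 3 libraries was 0.06 in controls, 0.14 in hypertension, 1.03 in atherosclerosis and 0.35 in MI. Atherosclerosis 2, at 0.465, was the library farthest from the controls, and the difference in spread was not tested. Itgax over Itgb2 was 0.00482, 0.00542 and 0.00445 in controls and 0.0111, 0.00712 and 0.00751 in atherosclerosis, again without overlap, a log2 difference of 0.79. Itgal over Itgb2 was higher without overlap in hypertension by 0.23 and in atherosclerosis by 0.28 on the log2 scale, and Itgb2 over Itgb1 was lower without overlap in atherosclerosis, by −0.35. In these 5 of 27 comparisons the exact two-sided permutation p was 0.1, the smallest possible with 3 against 3, and the adjusted p was 0.54. The summed RPKM of the 3 β2-pairing α members was 0.245 ± 0.011 of that of Itgb2 in controls (SD, n = 3), 0.293 ± 0.030 in hypertension, 0.329 ± 0.197 in atherosclerosis and 0.270 ± 0.062 in MI. If only the unshared exon bases of Itgam were counted, the control ratio would be 0.648 ± 0.028.

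**Figure D5:**
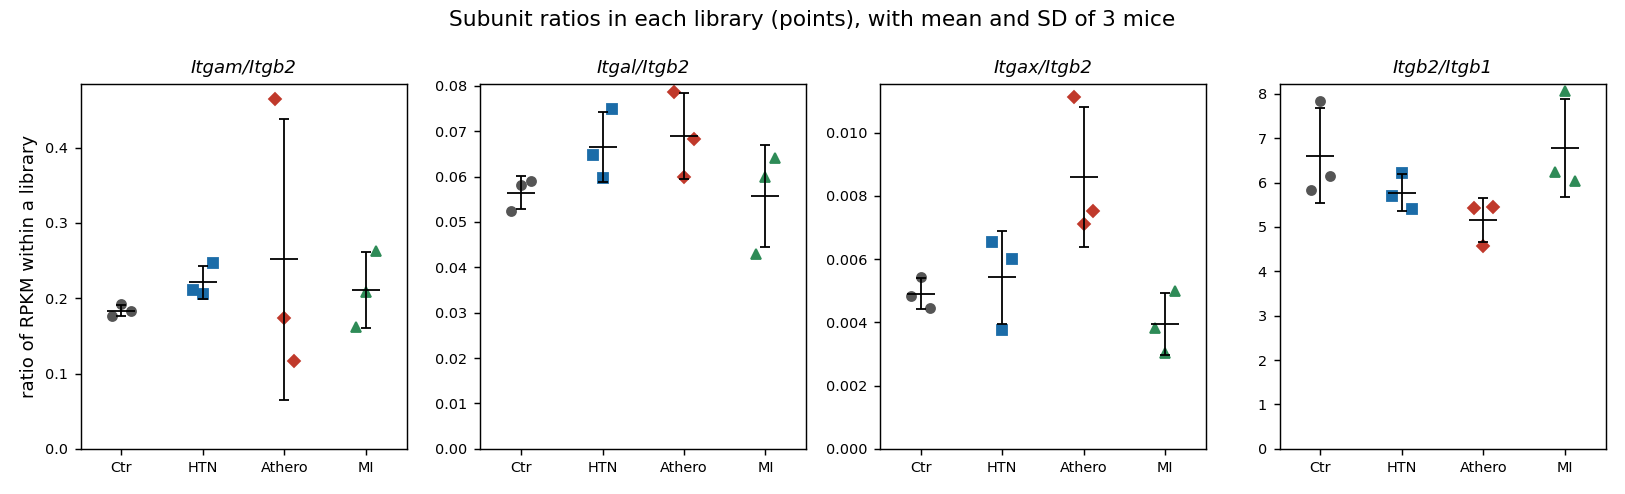
Ratio of RPKM between subunit genes within each library (points), with the mean and SD of 3 mice of a group. Itgam over Itgb2 is narrow in controls (0.177 to 0.192) and reaches 0.465 in atherosclerosis 2, and Itgax over Itgb2 is higher in all 3 atherosclerosis libraries than in the controls.

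Genes of integrin ligands and of the proteins that activate integrins were not called either. Of 33 genes of integrin ligands 22 could be tested and of 44 genes of activation and adaptor proteins 42. Of either list 0 were called against controls, beside 0%, 0.144% and 0% of all genes in hypertension, atherosclerosis and MI. The medians of the ligand list were −0.16 in hypertension, −0.08 in atherosclerosis and −0.08 in MI, and those of the adaptor list −0.07, −0.01 and 0.01. Of the ligands, the smallest unadjusted p values belonged to Spp1 (osteopontin, an αV ligand), with a log2 fold change of −1.09 ± 0.39 (SE) in atherosclerosis, Icam2 (a β2 ligand on endothelium), with −0.61 ± 0.23 in hypertension, and Vwf, with 0.84 ± 0.35 in atherosclerosis. Their adjusted p were 0.689, 0.951 and 0.801 by edgeR. Icam1 was at −0.32, 0.30 and −0.09 in hypertension, atherosclerosis and MI. Vcam1, a ligand of α4β1 that is also in the macrophage list, was at −0.13, 0.41 and 0.13 in these groups. Of the adaptors, Fblim1 (migfilin) was at −0.71 ± 0.29 in MI, Skap2 at −0.34 ± 0.15 in hypertension and Apbb1ip (RIAM) at −0.43 ± 0.22 in hypertension. Fermt3 (kindlin-3), which β chains need for activation in blood cells, was at −0.10, 0.00 and −0.06 in the 3 groups, each within its SE of 0.16.

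Across the 12 libraries the members did not form one block. As a description over libraries that share depth and cell composition, the highest correlations of log2 CPM between members were Itgb7 with Itga5 (r = 0.72), Itgax with Itga4 (r = 0.71) and Itgb7 with Itgav (r = 0.71), and the lowest was Itgam with Itga5 (r = −0.65). Of 100 relations between a member and a marker sum, 0 passed an adjusted permutation p of 0.05 by Pearson's r, and Itgam stood out with the erythroid sum, at r = −0.81 (permutation p = 0.000570, adjusted p = 0.0570) and rho = −0.89 (permutation p = 0.000360, adjusted p = 0.0360). Without the 2 libraries farthest from the median r was −0.85, and within groups, as deviations from the group means, −0.86. The erythroid sum was between 8679 and 25942 CPM over 14 genes, all at 10 or more counts in every library. Among 10149 genes with a mean of at least 5 CPM, the gene most like each member by r over the 12 libraries was Tmem184b for Itgal (0.98), Golim4 for Itgam (0.94), Rasa4 for Itgax (0.95), Flii for Itgb2 (0.96), Nr2c2 for Itga4 (0.98), Mbp for Itgb7 (0.93), Mdm1 for Itgb1 (0.93), Dtx2 for Itga5 (0.94), an unnamed gene (ENSMUSG00000118423) for Itga6 (0.92) and Itch for Itgav (0.95). Being the highest of many, these values describe the libraries alone.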

How the data were processed

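RNA was measured by sequencing in 12 libraries, 3 per group, and grouped by the labels. The deposited values are raw counts per Ensembl gene that the authors made with STAR 2.7.3a (GeneCounts option, GRCm38.p6) from single-end reads of strand-specific polyadenylated libraries. The strand column taken is not given in the sources used here, and reads that overlap several genes are not counted. Counts were fitted in R 4.3.3 with edgeR 4.0.16 (filterByExpr, TMM, glmQLFit, 1 coefficient per group, 12 libraries, 8 residual degrees of freedom), and each contrast was tested two-sided with glmQLFTest, Benjamini-Hochberg adjusted over 15999 genes. Total counts of 17007088 to 25136936 and 3 mice per group limit the precision. RPKM used exon lengths of GENCODE M21 in GRCm38 (55240 of 55421 genes had an entry), and promoters were those of RefSeq. Ratios and marker sums were compared by exact permutation tests, correlations with 100000 permutations. The steps were tested on simulated counts. In a simulated contrast of atherosclerosis against control, 43 of 100 genes with a log2 change of 1 were called. Of 100 genes with a log2 change of 2, 99 were called, and 3 unchanged genes were called.

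All members are named. Of other genes, the text names Itgb3, Itgb5, the sort and genotype checks, the 3 genes of each pathway list with the smallest unadjusted p against controls when none was called, and the gene most like each member, the first of the 3 that the rule takes. Genes named beyond these (Icam1, Vcam1, Fermt3, Cdh5, Gm49368, Siglech, Xcr1, Irf8, Cd209a and Tcf4) were chosen after their values were seen. The members and lists were chosen with earlier results of these data known. The replicate numbers 2, 3 and 4 were not used to pair the mice in the main fit. Deviations from group means correlated above 0.1 in 5 of 18 pairs of the same number (r from −0.28 to 0.30). With 3 libraries per group these correlations cannot settle whether the numbers mark pairs. Alternatives were edgeR's likelihood-ratio test, DESeq2 1.42.0, RLE size factors, no filter, a minimum of 10 counts per gene in each library, a fit of the compared groups alone, a block for the replicate number, removal of 411 immunoglobulin and hemoglobin genes, coding length, and the omission of each library in turn. The unshared exon length was added after the data had been seen.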

Additional observations from a re-analysis of the deposited data

Results flagged for a closer look

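Itgax was flagged because its 3 atherosclerosis libraries were all above the control mean and its 3 MI libraries all below it. Relative to the control mean, log2 values were 1.04, 0.17 and 0.77 in atherosclerosis and −0.42, −0.70 and −0.30 in MI, a difference between the group means of 1.13. The opposite directions against controls were not tested as such. The direct contrast of the 2 groups was tested in the fit to all libraries and did not pass the threshold (adjusted p = 0.0894, edgeR's quasi-likelihood test).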

How the results depend on the processing

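Counts of called genes moved with the test and the filter. With edgeR's likelihood-ratio test 81 genes were called in atherosclerosis and 1 in MI against controls, 274 in MI against atherosclerosis, 70 in atherosclerosis against hypertension, 2 in MI against hypertension and 234 in the joint test of the 4 groups. With DESeq2 the counts were 81, 1, 301, 76 and 22, with no joint test. Without a filter 170 genes were called in hypertension, 432 in atherosclerosis and 130 in MI against controls, 790 in MI against atherosclerosis, 235 in atherosclerosis against hypertension, 422 in MI against hypertension and 990 in the joint test. With only the 2 groups compared, 4 were called in atherosclerosis and 1 in MI against controls and 3 in MI against atherosclerosis. Without immunoglobulin and hemoglobin genes 66 were called in MI against atherosclerosis. Among the members, 1 was called in MI against atherosclerosis with the likelihood-ratio test, DESeq2 and no filter, and 1 in the joint test without a filter. It was Itgax each time, with log2 fold changes of −1.17, −1.17 and −1.18. The cause of these changes was not tested.

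With the replicate block 7 genes were called in atherosclerosis against controls, 22 in MI against atherosclerosis and 5 in the joint test, and 0 of 10 members in any comparison. For Itgax in MI against atherosclerosis the adjusted p under the replicate block was 0.152.

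With each library left out in turn, 2 to 34 genes were called in atherosclerosis against controls, 8 to 93 in MI against atherosclerosis, 3 to 36 in atherosclerosis against hypertension and 7 to 37 in the joint test. The highest count of each came without atherosclerosis 2. For log2 fold changes of the members, a change of sign was counted as a reversal only where a value exceeded its SE in either fit. The 44 changes of the members within the SE in both fits were not counted. Under that rule Itgam reversed without atherosclerosis 2 in its comparisons with controls (range −0.49 to 0.57), MI (−0.54 to 0.52) and hypertension (−0.52 to 0.54). Itga5 reversed without atherosclerosis 4 against controls (−0.32 to 0.54) and in MI against atherosclerosis (−0.58 to 0.28). Itgb7 reversed without atherosclerosis 4 against hypertension (−0.045 to 0.51), and Itga6 in hypertension without control 2 (−0.15 to 0.32). Ratios and marker sums were judged against the SE of the difference over all libraries, which an outlying library widens. None reversed by that measure, but several changed sign. Without atherosclerosis 2 the log2 difference between atherosclerosis and controls went from 0.20 to −0.37 for Itgam over Itgb2. For Itga4 over Itgb7 it went from 0.40 to −0.055. For the megakaryocyte sum in MI it ranged from −0.24 to 0.89. Over coding length the median RPKM was 25.3 for Itgal, 67.7 for Itgam, 303 for Itgb2, 33.6 for Itga4, 61.6 for Itgb1, 6.01 for Itga5, 14.5 for Itga6 and 5.47 for Itgav, and over its unshared exon bases in GENCODE M21 155 for Itgam. Of the members, depth limits Itgax most, at 68 to 270 counts.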

Other observations

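Itgb2l, a gene similar to Itgb2 on a different chromosome, was on no list and was noticed after its values were seen. It read 57.6, 69.1 and 76.3 RPKM in controls, 61.6, 63.4 and 47.2 RPKM in hypertension, 58.0, 46.4 and 61.1 RPKM in atherosclerosis and 69.3, 77.6 and 53.1 RPKM in MI. It stood below Itgb2 in every library, and the groups overlapped. Reads from similar stretches of Itgb2 and Itgb2l may be split between the genes or dropped, which was not tested.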
